A study of Mus musculus with 2 samples.

Results

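The mast cell and basophil genes described here are 10 genes chosen by name: the granule proteases Mcpt8, Cma1, Mcpt4, Tpsb2, Tpsab1 and Cpa3, the receptor genes Kit, Fcer1a and Ms4a2, and Hdc, the gene of histamine synthesis. All probe sets listed for one of these symbols alone in the platform annotation were taken, which gave 13 of the 22626 non-control probe sets and 10 of the 12393 named genes. The values come from 2 oligonucleotide arrays of total RNA from mouse femur of the c57Bl/6 strain. They hold 1 allograft sample and 1 autograft sample. Allograft is the term for bone moved between genetically different animals of a species, and autograft for bone moved within an animal. Both arrays share the strain and the bone, and the labels used here do not give the donor, the graft procedure, the time after grafting or the number of animals behind a sample. With 1 array per graft type, no difference has a replicate check and none could be tested, and the precision of every value is limited by that number of arrays.

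Mast cells are tissue-resident cells that arise from marrow progenitors, depend on the receptor Kit, and store histamine with chymases, tryptases and carboxypeptidase A in their granules. Basophils are short-lived granulocytes that mature in the marrow and circulate in blood. Both carry the high-affinity receptor for immunoglobulin E, whose crosslinking by antigen releases the granules. In mice Mcpt8 is the protease used as a basophil marker, whereas the chymases, the tryptases and abundant Kit mark mast cells.

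The floor was set at 175.2, the median intensity over both arrays with controls left out, and a value that reached it is called above the floor. Lower values were set to the floor before the log2 ratio of allograft over autograft was taken. Of the 10 genes, 3 reached the floor on both arrays (Mcpt8, Cpa3 and Cma1), 2 on the allograft array alone (Kit and Hdc) and 5 on neither array (Mcpt4, Tpsb2, Tpsab1, Fcer1a and Ms4a2). Over the whole array, 7833 of the 12393 genes reached the floor on 1 array or both, and 7101 on both. The floor is a median and not a detection call, and with the 25th percentile in its place all 10 genes were above it on 1 array or both. So were 10665 of the 12393 genes. The basophil protease gene Mcpt8 was higher in the allograft sample, and the mast cell protease genes Cpa3 and Cma1 had lower values there. The ratios thus lay on both sides of 0, and the alpha and beta chain genes of the IgE receptor lay below the floor in both samples.

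**Figure D1:**
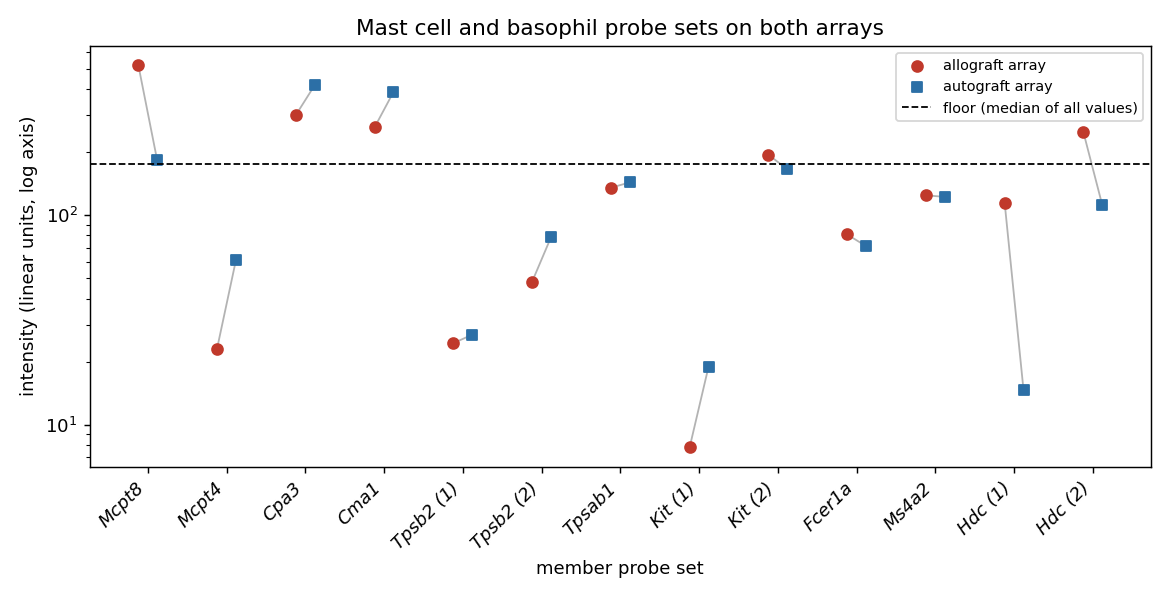
Intensity on a log axis of each of the 13 probe sets of the mast cell and basophil genes, with circles for the allograft array and squares for the autograft array, joined by a grey line; the dashed line is the floor of 175.2 and numbers in brackets separate probe sets of one gene. Mcpt8 reads 519 in the allograft against 182 in the autograft, Cpa3 and Cma1 lie above the floor with the opposite order, and 8 probe sets lie below the floor on both arrays.

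Mcpt8 encodes a granule serine protease of basophils. Its single probe set read 519 in the allograft against 182 in the autograft, a log2 ratio of 1.51 or 2.85-fold. The allograft value lay well above the floor and the autograft value just above it. Among the 7101 genes above the floor on both arrays, 17 had a higher ratio than Mcpt8. The central 95% of those genes ran from -0.76 to 0.71, with a median of -0.07, so Mcpt8 lay outside that range. Of the 5 member genes above the 175.2 floor it alone was at least 2-fold apart, whereas Hdc also passed 2-fold with a lower floor or none.

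Cma1 encodes a mast cell chymase that is stored in granules, and its probe set read 262 in the allograft against 386.5 in the autograft, a log2 ratio of -0.56. Cpa3 encodes the mast cell carboxypeptidase A, a zinc-dependent enzyme of the same granules that basophils and early progenitors of both cells also transcribe. Its probe set read 299.9 in the allograft against 416.5 in the autograft, a log2 ratio of -0.47. Both genes were lower in the allograft sample by less than 2-fold, and 7.27% of the genes above the floor on both arrays had a lower ratio than Cma1 and 10.9% a lower ratio than Cpa3.

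The other protease genes were below the floor on both arrays, and no ratio is given for them. Mcpt4, the gene of a chymase of connective tissue mast cells, read 23.1 in the allograft against 61.1 in the autograft. Tpsb2, a tryptase gene of mast cells, had 2 probe sets, at 24.5 and 48.1 in the allograft against 26.9 and 78.4 in the autograft. Tpsab1, a second tryptase gene, read 135.0 in the allograft against 143.2 in the autograft. The RefSeq annotation of the C57BL/6J assembly lists Tpsab1 as a transcribed pseudogene, and this strain is known to lack its protein.

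Promoter sequences are shown for the 3 genes above the floor on both arrays, and a link between their letters and their ratios was not tested. Each runs from 250 bases before to 50 bases after the annotated start in RefSeq's GRCm38.p6 and is written 5′ to 3′ on the gene's own strand. The motifs searched were the 5 letters GATAA, one form of the site bound by GATA factors, and the 6 letters CATGTG, bound by MITF-family factors. Both strands were searched, with TTATC and CACATG as their complements, and matches are in capitals. Other forms of these sites were not searched. No match of one motif overlapped a match of the other in the windows of these genes. The first sequence is that of Mcpt8 at chr14:56085148-56085447, the second that of Cpa3 at chr3:20242132-20242431 and the third that of Cma1 at chr14:55944626-55944925, all on the minus strand.
Mcpt8: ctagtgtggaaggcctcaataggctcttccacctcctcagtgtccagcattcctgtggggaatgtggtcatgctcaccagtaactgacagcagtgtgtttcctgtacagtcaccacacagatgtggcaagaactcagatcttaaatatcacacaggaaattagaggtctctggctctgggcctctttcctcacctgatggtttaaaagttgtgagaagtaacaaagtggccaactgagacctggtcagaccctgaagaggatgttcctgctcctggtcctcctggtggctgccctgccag
Cpa3: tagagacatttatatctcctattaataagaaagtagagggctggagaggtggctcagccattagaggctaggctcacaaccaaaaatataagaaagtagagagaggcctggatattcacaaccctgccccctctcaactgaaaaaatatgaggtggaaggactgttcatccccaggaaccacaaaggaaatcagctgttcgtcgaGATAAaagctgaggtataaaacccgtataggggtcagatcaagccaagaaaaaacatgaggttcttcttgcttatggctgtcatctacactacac
Cma1: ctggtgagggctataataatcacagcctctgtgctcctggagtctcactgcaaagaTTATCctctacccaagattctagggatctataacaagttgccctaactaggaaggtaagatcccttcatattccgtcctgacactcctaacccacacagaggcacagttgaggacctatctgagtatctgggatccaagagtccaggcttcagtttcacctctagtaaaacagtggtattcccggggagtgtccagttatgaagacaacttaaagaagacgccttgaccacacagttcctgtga
The Mcpt8 window held neither motif. The Cpa3 window held GATAA from 45 bases before the start, and the Cma1 window held it on the opposite strand from 194 bases before the start. Of the 8 genes with a promoter entry, 5 held GATAA (Cpa3, Cma1, Mcpt4, Fcer1a and Ms4a2, the last with 3 matches), and 1, Fcer1a, held CATGTG. Over all 32851 promoter windows of that length, 25.4% held GATAA and 14.2% held CATGTG. Mcpt8, Kit and Hdc held neither, and Tpsb2 and Tpsab1 had no entry. A match describes the letters only.

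Kit, the receptor tyrosine kinase for stem cell factor, is used by mast cells, their progenitors and early blood progenitors. One of its 2 probe sets read 194 in the allograft against 165 in the autograft. It was above the floor on the allograft array alone, where it was at least 1.11-fold higher. The other probe set read 7.8 in the allograft against 18.9 in the autograft. The 2 probe sets of Kit therefore ran in opposite order, one of them close to the floor and the other far below it.

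Fcer1a encodes the alpha chain of the high-affinity IgE receptor, which binds the antibody, and Ms4a2 its beta chain, which amplifies the signal. Fcer1a read 80.9 in the allograft against 71.1 in the autograft. Ms4a2 read 124 in the allograft against 122 in the autograft. Neither was above the floor in either sample. Fcer1g, the gene of the gamma chain that the IgE receptor shares with other receptors of myeloid cells, read 3382 in the allograft against 2764 in the autograft, a log2 ratio of 0.29.

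Hdc encodes histidine decarboxylase, which makes histamine and is expressed in mast cells, basophils and also in other myeloid cells. Its brighter probe set read 249 in the allograft against 111.5 in the autograft, which is at least 1.42-fold higher in the allograft when the autograft value is set to the floor. Its second probe set read 114.5 in the allograft against 14.6 in the autograft, below the floor on both. Both were higher on the allograft array, and both have the name ending (_s_at) of probe sets that may bind transcripts of different genes, as did no other member probe set. With the floor at the 25th percentile of all values, 50.6, the brighter probe set of Hdc stood at a log2 ratio of 1.16, and Hdc then passed 2-fold.

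Of the 5 member genes that reached the floor, 1 was at least 2-fold higher in the allograft sample, Mcpt8, and 0 were at least 2-fold lower. Of the 7833 genes that reached the floor on 1 array or both, 0.868% were higher by that measure and 0.753% were lower. That background counts bounds at their value, as the members' count does. The members' ratios lay above 0 for 3 genes and below 0 for 2, with a median of 0.15, beside a median of -0.08 over all genes above the floor, of which 40.4% lay above 0. The median of these 5 genes is the value of Kit, a bound close to the floor. Kit and Hdc reached the floor on the allograft array alone, so their ratios could only lie above 0. Among the members above the floor on both arrays, Mcpt8 lay above 0 and Cpa3 and Cma1 lay below. The background itself depended on the scaling: 68 genes were higher and 59 lower as deposited (53.5% higher), against 77 and 38 after quantile normalization (67.0% higher), 84 and 46 after median centring (64.6%), 87 and 43 after scaling to the 75th percentile (66.9%) and 81 and 35 with the trend of the ratio on intensity removed (69.8% higher).

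**Figure D2:**
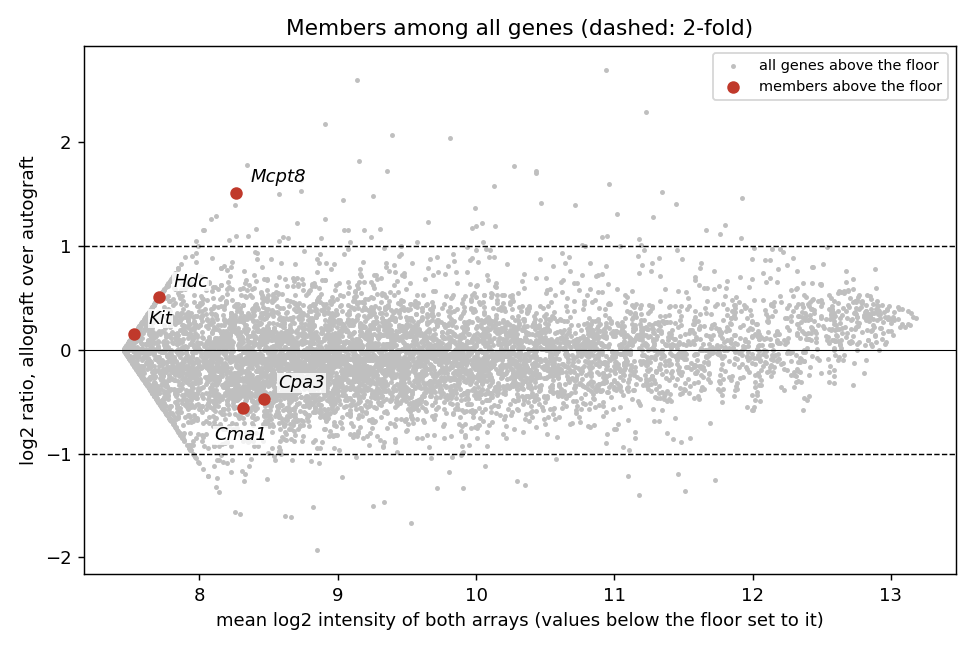
Log2 ratio of allograft over autograft against the mean log2 intensity of both arrays for every gene that reached the floor on either array (grey) and for the 5 member genes among them (red); dashed lines mark 2-fold. Mcpt8 at 1.51 lies above the upper line, Cma1 at -0.56 and Cpa3 at -0.47 lie within the cloud, and Hdc and Kit lie on the edge that the floor sets.

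**Figure D3:**
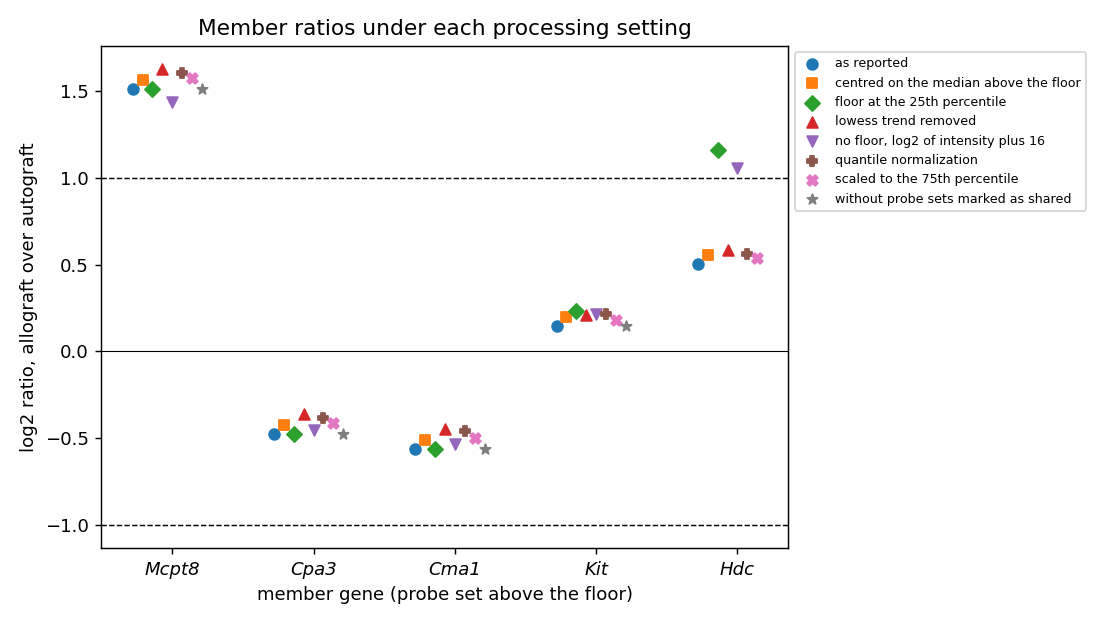
Log2 ratio of allograft over autograft for the brighter probe set of each member gene above the floor, under the reported setting and each alternative that gave a value; dashed lines mark 2-fold. Mcpt8 ran from 1.43 to 1.63, Cpa3 from -0.47 to -0.36, Cma1 from -0.56 to -0.45 and Kit from 0.15 to 0.23, while Hdc ran from 0.50 to 1.16.

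Mcpt8, Cma1 and Mcpt4 lie in one cluster of protease genes on chromosome 14, which in RefSeq's order runs from Cma1 to Gzmb over 15 protein-coding genes. This stretch was chosen for description after its values were seen. On the mast cell side of Mcpt8, the genes between Cma1 and Mcpt8 (Cma2, Mcpt1, Mcpt2, Mcpt9 and Mcpt4) were all below the floor on both arrays, Cma2 and Mcpt9 in a probe set they share. Next to Mcpt8 on the other side is Ctsg, the gene of cathepsin G of neutrophil and mast cell granules, which read 2429 in the allograft against 1472 in the autograft, a log2 ratio of 0.72. Beyond it is Gzme, a granzyme gene. The probe set listed for it alone read 724 in the allograft against 250 in the autograft, a log2 ratio of 1.53, and has the name ending (_x_at) of probe sets that may bind transcripts of different genes. Gzmd, the following granzyme gene, had one probe set listed for it alone at 195.5 in the allograft against 199 in the autograft, and another, also of the _x_at kind, at 205 in the allograft against 153 in the autograft. The remaining granzyme genes up to Gzmb were below the floor on both arrays. The genes of this cluster are alike in sequence, and whether oligonucleotides of one gene also bound transcripts of another was not tested.

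**Figure D4:**
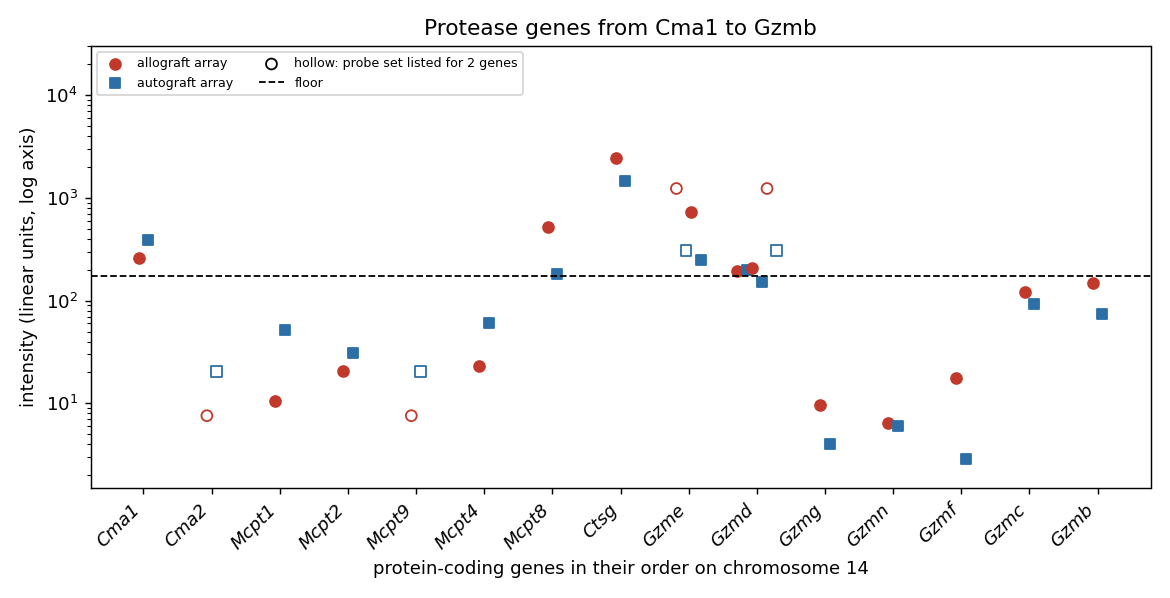
Intensity on a log axis of the 16 probe sets of the 15 protein-coding genes from Cma1 to Gzmb, placed in their order on chromosome 14, with circles for the allograft array and squares for the autograft array; hollow symbols are probe sets listed for 2 genes and are drawn at both. Cma1 is higher on the autograft array, Mcpt8, Ctsg and Gzme are higher on the allograft array, and 9 of the 16 probe sets lie below the floor on both.

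Genes that act downstream of the IgE receptor had values on both sides of 0. Without Fcer1g, 17 of the 18 listed genes had a probe set and 13 were above the floor, 5 with a ratio above 0 and 8 below, none of them 2-fold apart, with a median of -0.15. Gab2, among the 8, was above the floor on the autograft array alone, so its ratio could only lie below 0. The highest were Stim1, the calcium sensor of the endoplasmic reticulum, at 0.39 in a probe set that may bind transcripts of different genes, and Btk, a cytoplasmic tyrosine kinase, at 0.34. The lowest were Lat, the adaptor of the plasma membrane, at -0.43 and Fyn, a Src-family kinase, at -0.41. Syk, the kinase recruited by the gamma chain, stood at -0.15 (1208 in the allograft against 1341 in the autograft). All of these are also transcribed in other blood cells.

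Of 9 genes for the Kit ligand and for signalling from Kit, 5 were above the floor, 2 with a ratio above 0 and 3 below, none 2-fold apart, with a median of -0.01. That median is the value of Cbl. Cbl was above the floor on the autograft array alone, so its ratio could only lie below 0. Kitl, the gene of stem cell factor itself, read 816 in the allograft against 914.5 in the autograft in its brightest probe set, a log2 ratio of -0.17. Ptpn6, a phosphatase that restrains Kit, was highest at 0.34 in a probe set that may bind transcripts of different genes, while its other probe set stood at -0.04, followed by the phosphatase gene Ptpn11 at 0.15. Grb2, an adaptor, stood at -0.16 in its brighter probe set and at -0.53 in its other one.

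The 12 transcription factor genes of mast cells, basophils and their progenitors had a median of 0.14, with 11 above the floor, 7 of them with a ratio above 0 and 4 below. Runx1, among the 7, was above the floor on the allograft array alone, so its ratio could only lie above 0. Tal1, which acts in red cell, mast cell and megakaryocyte development, was the only one 2-fold apart, at 1.44 (868 in the allograft against 319 in the autograft). Gata1, which acts in the same lineages, stood at 0.68 (448 in the allograft against 279.6 in the autograft). Gata2, required for mast cells and basophils, stood at -0.23 (338 in the allograft against 396 in the autograft), and Mitf, a mast cell and osteoclast factor, at -0.07 (557 in the allograft against 585 in the autograft). Spi1, a myeloid factor, was lowest at -0.71 (529 in the allograft against 866 in the autograft).

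Of 17 other granule genes 12 had a probe set and 8 were above the floor, 4 with a ratio above 0 and 4 below, none 2-fold apart, with a median of 0.01. Besides Ctsg, the highest was Srgn, the gene of serglycin, the proteoglycan core that packs proteases in granules of many blood cells, at 0.70 (4906 in the allograft against 3013 in the autograft). The lowest were Vamp8, a fusion protein of secretory granules, at -0.69 (1973 in the allograft against 3173 in the autograft) and Gusb, a lysosomal glucuronidase, at -0.44. The mast cell protease genes Mcpt1 and Mcpt2 and the tryptase gene Tpsg1 were below the floor on both arrays, as was Gzmb.

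Eicosanoid synthesis and histamine handling gave few values. Of 8 eicosanoid genes 6 had a probe set and 3 were above the floor, none 2-fold apart: Alox5ap, the activating protein of leukotriene synthesis, at 0.24, Pla2g4a, a phospholipase that frees arachidonic acid, at 0.10, and Lta4h, a leukotriene hydrolase, at -0.23. Another probe set of Lta4h stood at -0.65. Hpgds and Ltc4s, the synthases of prostaglandin and leukotriene in mast cells, were below the floor on both arrays. Of 7 genes for histamine breakdown, transport and reception 6 had a probe set, and Hnmt, which methylates histamine, was the one above the floor, on the autograft array alone (112.5 in the allograft against 191.6 in the autograft).

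Of 16 cytokine and cytokine receptor genes of mast cells and basophils 14 had a probe set and 5 were above the floor, none 2-fold apart, with a median of -0.01. Il33, an alarm cytokine that acts on mast cells and basophils, was highest at 0.69 (531 in the allograft against 329 in the autograft). Csf2rb, the beta chain of the receptors for IL-3, GM-CSF and IL-5, was above the floor on the allograft array alone and at least 1.60-fold higher there. Its close relative Csf2rb2, a beta chain specific to IL-3 in mice, stood at -0.38 (621 in the allograft against 807 in the autograft), and C3ar1, a complement receptor, at -0.32. Il3ra, the alpha chain that binds IL-3, and the cytokine genes Il3, Il4 and Il13 were below the floor on both arrays.

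**Figure D5:**
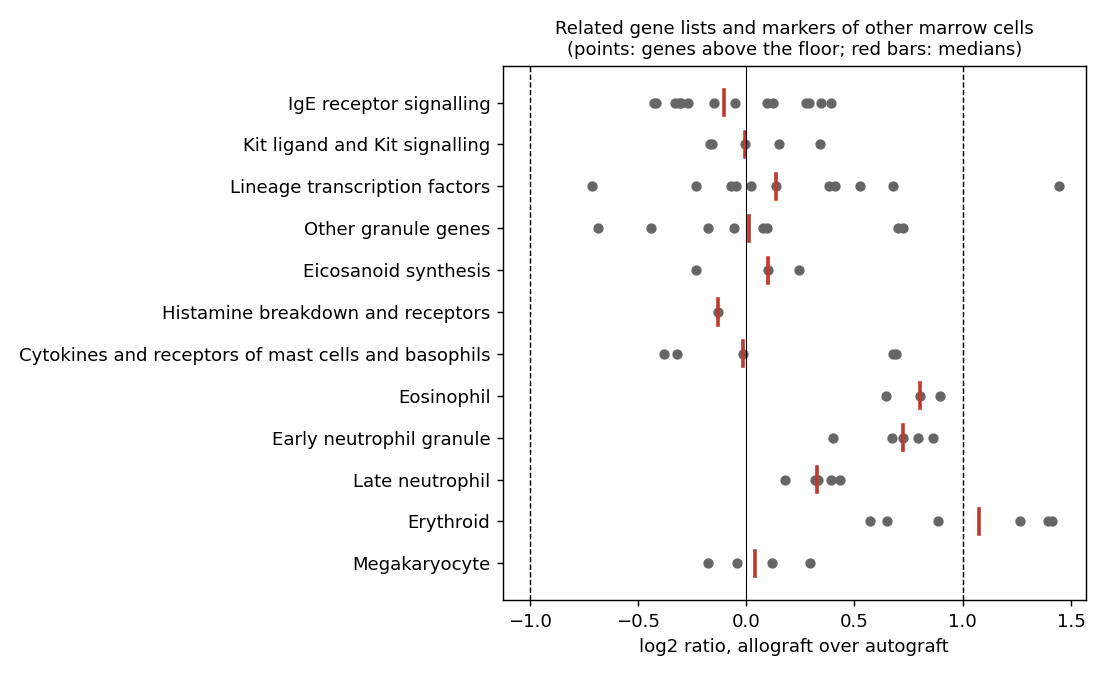
Log2 ratio of allograft over autograft of the genes above the floor in 7 related gene lists and in the marker lists of 5 other marrow cells; each point is a gene, red bars are list medians and dashed lines mark 2-fold. The related lists, with Fcer1g in that of IgE receptor signalling, have medians between -0.13 and 0.14 with members on both sides of 0 where more than 1 gene is above the floor, whereas the eosinophil, early and late neutrophil and erythroid markers above the floor all lie above 0. The eosinophil gene Prg3 was above the floor on the allograft array alone and could only lie above 0.

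Of the 9 mast cell markers, which are all among the 10 genes, 4 reached the floor on either array, 2 with a ratio above 0 and 2 below. Those above 0 were Kit and Hdc, above the floor on the allograft array alone, so their ratios could only lie above 0. The summed intensity of all 9 was 1416 in the allograft against 1556 in the autograft. Of the 7 basophil markers 5 had a probe set, and those above the floor were Mcpt8 and Gata2. The summed intensity of those 5 was 1177 in the allograft against 899 in the autograft. Mcpt8 sets that direction: the other 4 summed to 658 in the allograft against 717 in the autograft. Gata2 lay below 0, and Fcer1a, Ms4a2 and Il3ra were below the floor and were given no ratio.

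Markers of several other marrow cells had ratios in the direction of Mcpt8 and Hdc. The early neutrophil granule list, whose genes are active at the promyelocyte stage, had all 5 of its 5 genes above 0, with Mpo at 0.86 and a median of 0.72, and its summed intensity was 14372 in the allograft against 8806 in the autograft. Of 8 eosinophil genes 6 had a probe set, and the 3 above the floor lay above 0, with Prg2, the major basic protein, at 0.89 (2230 in the allograft against 1199.7 in the autograft) and Epx, the eosinophil peroxidase, at 0.80 (862 in the allograft against 495 in the autograft). The summed intensity of the 6 was 3477 in the allograft against 1947 in the autograft, while Ccr3, Siglecf and Il5ra were below the floor on both arrays. All 6 erythroid genes with a probe set lay above 0, 3 of them at least 2-fold, with a median of 1.08 and sums of 13331 in the allograft against 6909 in the autograft. The late neutrophil genes had a median of 0.33 over 6 genes, with sums of 39489 in the allograft against 31780 in the autograft. The 4 megakaryocyte genes had a median of 0.04, with 2 on each side of 0. Of 6 progenitor genes 5 had a probe set and 4 were above the floor, 2 with a ratio above 0 and 2 below, with a median of 0.01. Myb, a factor of dividing progenitors, stood at 1.16 in a probe set that may bind transcripts of different genes. Its other 2 probe sets were below the floor. Kit, the other gene above 0, was above the floor on the allograft array alone. Cd34 stood at -0.28 and Flt3 at -0.12. Of the melanocyte genes, which would be another source of Kit and Mitf, Pmel alone was above the floor, on the autograft array (143 in the allograft against 184 in the autograft). The part of these cells in the ratios of Mcpt8, Hdc and Tal1 was not tested, and in whole tissue a change in the number of cells cannot be told apart from a change in RNA per cell.

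As for the arrays as a whole, the median intensity without controls was 167 in the allograft against 184 in the autograft, and the share of probe sets that reached the floor was 48.9% in the allograft against 51.1% in the autograft. The 4 bone and cartilage markers with a probe set were above the floor on both arrays, with ratios from -0.47 for Acan, the cartilage aggrecan, to 2.70 for Col1a1, the main chain of bone collagen, 3 above 0 and 1 below, and a median of 0.25. The other probe set of Col1a1 read 2736 in the allograft against 31.3 in the autograft, the latter below the floor. The brighter probe set of Ibsp, bone sialoprotein, stood at 0.05 and its other one at -0.56. The 4 skeletal muscle markers ran from -0.22 for Tnnt3, a troponin, to 1.08 for Acta1, muscle actin, 3 above 0 and 1 below, with a median of 0.60. Degraded RNA raises the 3′ to 5′ intensity ratio of the beta-actin controls, and this ratio stood at 1.77 in the allograft against 1.19 in the autograft, and its part in the ratios given here was not tested. For Gapdh the 5′ probe set was the brighter one on both arrays (ratios of 0.194 in the allograft against 0.0349 in the autograft), so that pair was not read as a measure of breakdown.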

How the data were processed

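The table deposited by the authors holds linear intensities, 1 value for each probe set on each array, with names of the Affymetrix form. How the authors corrected and scaled them is not given in the sources used here. The 2% trimmed means over all 22690 probe sets, 64 of them controls, were 500.2 in the allograft against 500.1 in the autograft. Such arrays, within 10% of each other, were used as deposited. Groups came from the titles in the labels.

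The platform annotation gave 1 symbol to 20380 of the others, several to 691 and none to 1555. RefSeq (GRCm38.p6) matched 20351 of the 20380 by Entrez identifier, and 0 symbols changed. The sources give no genome build for them. The probe set with the highest mean intensity stood for its gene. No p-value, SE or interval is given, since each graft type has 1 array.

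All member probe sets are reported. From each related list the text names the 2 highest and 2 lowest genes above the floor, any gene 2-fold apart, and some below the floor that were chosen for their role. The members and lists were chosen with earlier results of these data known. The alternatives were quantile normalization, median centring, scaling to the 75th percentile, removal of a lowess trend (span 0.4), the 25th or 75th percentile as floor, 16 added in place of a floor, a gene's mean or dimmest probe set, calls at 1.5-fold or 4-fold and, for the median, all members with those below the floor at 0. Leaving out probe sets marked as shared was added after the data were seen. The counting step was tested on simulated data in which only genes far brighter than the floor were changed. That test does not cover genes as dim as the members. Python 3.11.15 was used with numpy 2.4.6, pandas 2.3.3, statsmodels 0.14.6 and matplotlib 3.10.9.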

Additional observations from a re-analysis of the deposited data

Results flagged for a closer look

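A probe set outside the gene comparison, because it is listed for both Gzme and Gzmd in the cluster that holds Mcpt8, read 1232 in the allograft against 307 in the autograft, a log2 ratio of 2.0. It was singled out as a signal above the autograft level in data that the comparison of genes did not use.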

How the results depend on the processing

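Mcpt8 was counted as higher under all alternatives except 2. With the 75th percentile (561.5) as floor no member was above it and 0 were counted. With the call at 4-fold 0 were counted, since Mcpt8 kept its ratio of 1.51. With the 25th percentile as floor, or with 16 added and no floor, 2 members passed 2-fold, Mcpt8 and Hdc, with Hdc at 1.16 and 1.05. The count of members at least 2-fold lower was 0 under every alternative. The members' median ran from -0.16 without probe sets marked as shared, which removes Hdc, to 0.21. It had no value at the higher floor, and was 0 with all members entered. Over all genes, the count higher was 313 at 1.5-fold, 6 at 4-fold, 146 and 34 at the lower and higher floor, and 236 with no floor. The count lower was 514, 0, 240, 16 and 428 in the same order, 38 after quantile normalization and 35 with the lowess trend removed. A lower floor admits dimmer genes and another threshold changes the call itself. The cause of the other shifts was not tested. No paired analysis was possible because each graft type has 1 array. The 5 genes below the floor have no ratio at the reported setting, and their signal over background was not measured.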

Other observations

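Below the floor, where no ratio is given, the deposited values of the chymase and tryptase genes all ran one way, a pattern chosen after the values were seen. All 8 probe sets for Mcpt4, Mcpt1, Mcpt2, Cma2 with Mcpt9, Tpsb2, Tpsab1 and Tpsg1 were lower on the allograft array. Mcpt1, for example, read 10.6 in the allograft against 51.6 in the autograft, and Tpsg1 21.3 in the allograft against 52.5 in the autograft. Other gaps were small, as for Tpsab1 at 135 in the allograft against 143.2 in the autograft. A Tpsb2 probe set read 24.5 in the allograft against 26.9 in the autograft. The granzyme genes of the chromosome 14 cluster that lay below the floor (Gzmg, Gzmn, Gzmf, Gzmc and Gzmb) all ran the other way. Gzmb, for example, read 149.5 in the allograft against 74.4 in the autograft, and Gzmn 6.4 in the allograft against 6 in the autograft. Of all 10639 probe sets below the floor on both arrays, 61.5% were lower on the allograft array. Of the 8 member probe sets below the floor on both arrays, 5 were lower there and 3 higher, the higher ones being those of Fcer1a, Ms4a2 and Hdc.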
